A study of Homo sapiens with 12 samples.

Results

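The control pools of 2 cancer cell line labels, OVCAR3 and CCL218, were compared to describe what differs between the labels in cells that had no drug history. The comparison used 6 of the 12 bulk RNA libraries of a study of hydroxychloroquine (HCQ) resistance, 3 pools for each label, and 12324 of the 28278 listed genes, those with at least 1 CPM (counts per 1e6 counted reads) in at least 3 of the 6 libraries. OVCAR3 is labelled an ovarian cancer line and CCL218 a colorectal cancer line. Control cells were passaged in normal medium without drug to passage 19, and every library was made from poly(A)-selected RNA. The 3 pools of a label, marked L, M and R, were groups of wells of 1 multiwell plate taken by position. The letters are read here as left, middle and right. Every well was passaged on its own, so p-values measure the spread between parts of 1 plate per label. Plate and label cannot be told apart. The HCQ-evolved pools, read further on, came from plates of the same lines given repeated HCQ pulses up to passage 15 and then grown without drug before harvest.

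A cell line usually keeps part of the gene programme of the tissue it came from. Cells of ovarian serous carcinoma are known for the lineage transcription factors PAX8 and WT1 and the surface mucin MUC16. Colorectal epithelial cells are known for the homeobox factor CDX2, the nuclear receptor HNF4A, the microvillus protein villin (VIL1) and, in their secretory cells, the transcription factor ATOH1 and the gel-forming mucin MUC2.

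The control libraries held 31147822 to 57550383 counted reads, and 3 counts in a library were worth 0.0521 to 0.0963 CPM. Between a control OVCAR3-labelled and a control CCL218-labelled pool, the SD over genes of the log2 ratio was 0.493 to 0.925 (9 pairs). It was 0.415 to 0.628 between pools of the OVCAR3 label and 0.247 to 0.694 between pools of the CCL218 label (3 pairs each), so the 2 ranges overlapped. Spearman's rho across genes between a pool of one label and a pool of the other was 0.919 to 0.984, as a description. The first principal component of the 6 control libraries held 64.8% of the variance and did not split the labels. Its scores were -51.8, 6.78 and -29.1 in the OVCAR3-labelled pools (L, M and R) and -16.5, 50.2 and 40.4 in the CCL218-labelled pools. In each library the score had the sign of the correlation with transcript length given next. Each library's deviation from the mean of the control libraries ran with transcript length (Spearman's rho across genes -0.54 in OVCAR3 L, 0.43 in OVCAR3 M, -0.58 in OVCAR3 R, -0.36 in CCL218 L, 0.65 in CCL218 M and 0.49 in CCL218 R). The part of this trend in single results was measured by a fit that removes it, given for some of the genes whose call it changes.

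Several markers went against the OVCAR3 label. Pools under both labels held colorectal epithelial transcripts and lacked several that define ovarian serous cells. Other ovarian markers were detected under both labels, and 7 of the 10 tested leaned toward OVCAR3. Of 30 colorectal markers, 20 passed the filter, and their summed level was 1455 to 1764 CPM in the OVCAR3-labelled pools and 1612 to 2265 CPM in the CCL218-labelled pools. LGALS4, an intestinal lectin, was at 855, 638 and 682 CPM in the OVCAR3-labelled pools (L, M and R) and 1362, 884 and 872 CPM in the CCL218-labelled pools. VIL1 stood at 236, 288 and 196 CPM in the OVCAR3-labelled pools (L, M and R) and 179, 201 and 178 CPM in the CCL218-labelled pools. For HNF4A the levels were 70.8, 89.7 and 67.3 CPM in the OVCAR3-labelled pools (L, M and R) and 88.4, 134 and 125 CPM in the CCL218-labelled pools. The ranges of VIL1 and HNF4A overlapped between labels, and those of LGALS4 were apart without passing the test (edgeR adjusted p = 0.448). With a block for plate position HNF4A and LGALS4 were higher in CCL218 (edgeR adjusted p = 0.00115 and 0.00309). VIL1 was lower in that fit (edgeR adjusted p = 0.0158). LGALS4 also passed with the length and GC trend removed (edgeR adjusted p = 0.0136). CDX2 was at 13.6, 8.60 and 10.4 CPM in the OVCAR3-labelled pools (L, M and R) and 26.3, 21.1 and 21.8 CPM in the CCL218-labelled pools. The CDX2 ranges did not overlap, but the gene missed the threshold (log2 fold change 1.09 ± 0.22 (SE), edgeR adjusted p = 0.0601) and passed it with a block for plate position (edgeR adjusted p = 8.16e-06 with the block). CDX2 also passed with the length and GC trend removed (edgeR adjusted p = 0.0161). The colorectal markers KRT20, FABP2, GUCY2C and ISX were at or near 0 in all 6 libraries, with no value above 0.147 CPM.

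Of 20 ovarian and Mullerian markers, 10 passed the filter. WT1 was at 0.103, 0.374 and 0.404 CPM in the OVCAR3-labelled pools (L, M and R) and 0.196, 0.389 and 0.212 CPM in the CCL218-labelled pools, under 1 CPM everywhere. SOX17 and SST had no count in any of the 6 libraries, and EMX2, ESR1, PGR, CDH6 and PAX2 were at 0.171 CPM or less in each. PAX8 was detected under both labels, at 14.8, 9.23 and 11.8 CPM in the OVCAR3-labelled pools (L, M and R) and 11.2, 7.24 and 6.35 CPM in the CCL218-labelled pools. MUC16 was at 30.3, 23.7 and 12.9 CPM in the OVCAR3-labelled pools (L, M and R) and 14.2, 7.17 and 4.44 CPM in the CCL218-labelled pools. Both sets of ranges overlapped and neither gene passed the test (edgeR adjusted p = 0.494 for PAX8 and 0.286 for MUC16), but both were higher under OVCAR3 in all 3 plate positions and passed with the block (edgeR adjusted p = 0.00911 and 1.48e-06). The list as a whole leaned toward the OVCAR3 label, with a median log2 fold change of -0.80 and 7 of the 10 tested members below 0. OVGP1, an oviduct glycoprotein, was apart with OVCAR3 higher, at 10.8, 8.57 and 9.73 CPM against 5.65, 4.21 and 4.04 CPM (edgeR adjusted p = 0.0557). It passed with the length and GC trend removed (edgeR adjusted p = 0.0241). WFDC2 overlapped, at 33.7, 11.8 and 23.6 CPM against 12.9, 4.62 and 5.38 CPM (edgeR adjusted p = 0.239). WFDC2 passed with that trend removed (edgeR adjusted p = 0.0208) and with the block (edgeR adjusted p = 1.09e-06). FOLR1 was apart with OVCAR3 higher but not called (edgeR adjusted p = 0.217). With the trend removed 1 member was higher in CCL218 and 2 lower, against 1.66% and 2.40% of all genes. With the block 7 members were lower in CCL218 and 3 higher, against 18.8% and 17.6% of all genes. The single member called in the main fit, with neither block nor trend removal, was mesothelin (MSLN), a surface glycoprotein used as an ovarian marker. It lay the other way, at 18.2, 10.7 and 13.6 CPM in the OVCAR3-labelled pools (L, M and R) and 94.3, 46.1 and 49.1 CPM in the CCL218-labelled pools (log2 fold change 2.16 ± 0.35 (SE), edgeR adjusted p = 0.0279). That call was lost without any 1 of the OVCAR3-labelled pools or without CCL218 R. The list's summed level was 991 to 1947 CPM under OVCAR3 and 625 to 1277 CPM under CCL218, most of it from CRABP2 and KLK6, which overlapped between labels. CCNE1, the cyclin E gene of the 19q12 region, was at 10.4, 11.6 and 11.3 CPM in the OVCAR3-labelled pools (L, M and R) and 8.99, 11.5 and 12.9 CPM in the CCL218-labelled pools, with a log2 fold change of 0.00 ± 0.19 (SE). Genes that many people lack by inheritance gave no called contrast, but 9 of the 12 listed were below the filter. A gene at or near 0 under both labels, such as UGT2B17 or GSTM1, cannot show one. UGT2B17 had no count in any control library, GSTM1 was at 0.0423 CPM or less, and GSTT1 (33.0 to 48.8 against 27.7 to 37.9 CPM) and ERAP2 (62.8 to 82.0 against 69.2 to 83.3 CPM) overlapped. The pools are therefore called by their labels below, and no cell type is read from the label OVCAR3. How these levels arose was not tested.

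**Figure D1:**
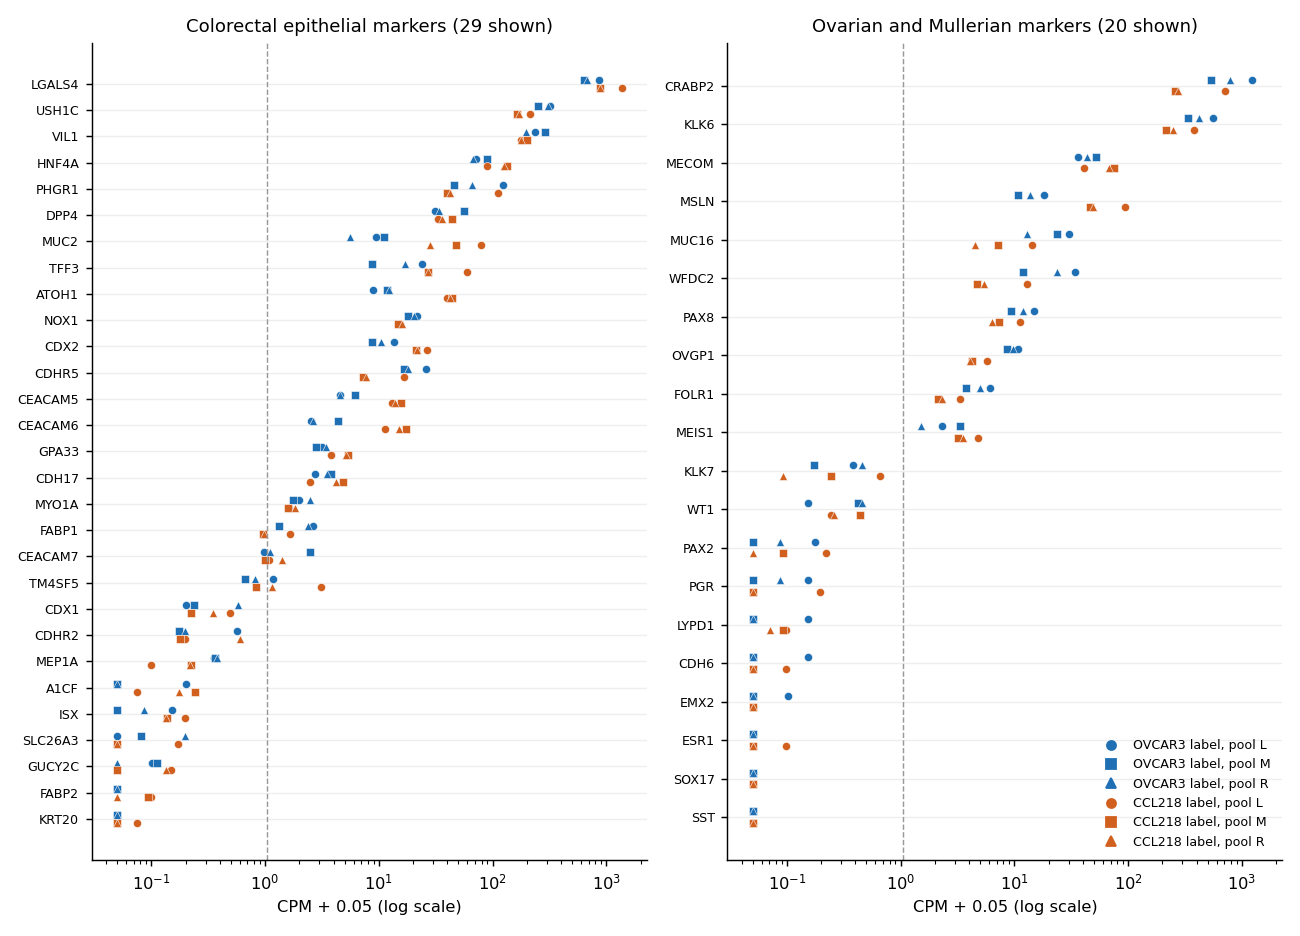
Levels of 29 colorectal (left) and 20 ovarian and Mullerian (right) markers in the 6 control libraries, as CPM + 0.05 on a log axis; each point is 1 pool, colour gives the label, shape the plate position, and the dashed line marks 1 CPM. Of the 20 tested colorectal markers, pools were apart with CCL218 higher for 8 and with OVCAR3 higher for 2. Of the 10 tested ovarian markers, they were apart for 1 and 2 in the same order. SOX17 and SST were at 0 in every pool.

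The label difference took in a small share of the genes. In edgeR's quasi-likelihood test, 116 genes were higher in the CCL218-labelled pools (0.941% of 12324) and 133 were lower (1.08%), at an adjusted p under 0.05. An unadjusted p under 0.05 was reached by 1528 genes (12.4%). All 249 called genes (2.02%) had pools that did not overlap between labels, as did 2176 (17.7%) of all tested genes, 1064 with CCL218 higher (8.63%) and 1112 with OVCAR3 higher (9.02%). The median log2 fold change of all tested genes was 0.01, 95.5% of them differed by less than 1 on the log2 scale, and 133 differed by 2 or more. Only 2 genes (0.0162%), EPB41L2 and ADH1C, were at 5 CPM or more in each CCL218-labelled pool and at 1 CPM or less in each OVCAR3-labelled pool, and 0 genes showed the reverse. A fit with plate position as a block called 2163 higher (17.6%) and 2314 lower (18.8%) genes, 36.3% in all, and all 249 genes kept their call. The block lowered the median SE from 0.235 to 0.121. With the trend in length and GC content removed, 204 (1.66%) and 296 (2.40%) were called, 4.06% in all, and 107 and 128 of the original calls remained. The count rested on each pool: it was 33 higher and 20 lower without OVCAR3 L, 66 and 51 without OVCAR3 M, 15 and 10 without OVCAR3 R, 161 and 310 without CCL218 L, 32 and 32 without CCL218 M, and 24 and 24 without CCL218 R.

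**Figure D2:**
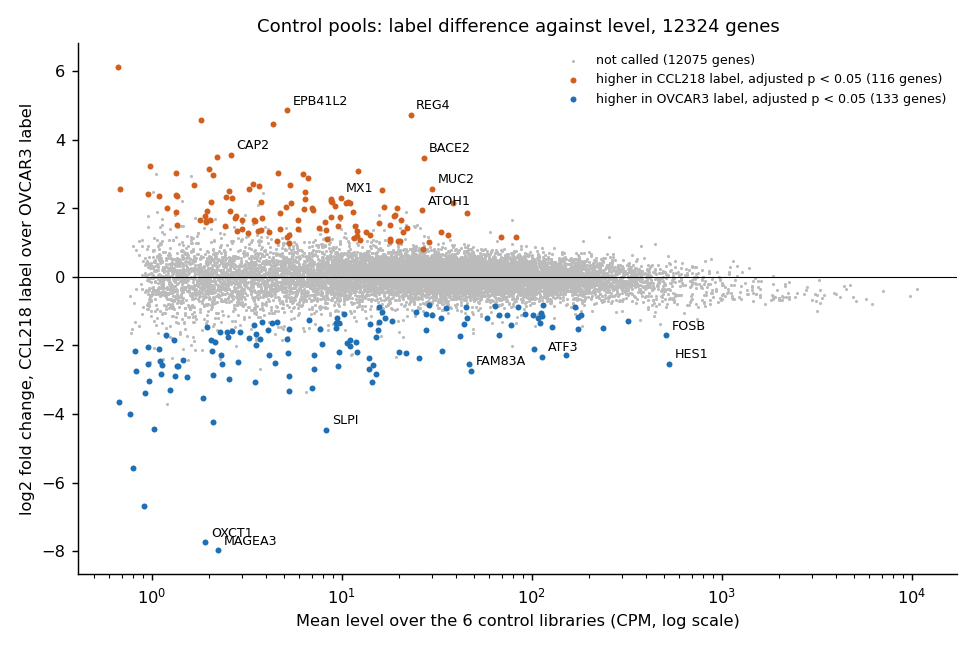
Log2 fold change (CCL218 label over OVCAR3 label) of 12324 genes against their mean level over the 6 control libraries (CPM, log axis); each point is 1 gene, and orange and blue mark the 116 and 133 genes called higher and lower in the CCL218-labelled pools. Most genes lie within 1 of 0, and the fold changes of MAGEA3 and OXCT1, which are at or near 0 under CCL218, depend on the prior count of the fit.

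The 12 genes highest in the CCL218-labelled pools by fold change ran from EPB41L2 to LINC00261. EPB41L2 (ENSG00000079819; chr6:130839347-131063322, minus strand of hg38), a membrane skeleton protein of the band-4.1 family, stood at 0.410, 0.374 and 0.257 CPM in the OVCAR3-labelled pools (L, M and R) and 6.13, 12.3 and 11.6 CPM in the CCL218-labelled pools (log2 fold change 4.86 ± 0.38 (SE), edgeR adjusted p = 0.00369). Its 3 CCL218-labelled pools were all far above the OVCAR3-labelled ones, with L the lowest of them. REG4 (chr1:119794017-119811580, minus strand), a secreted lectin of intestinal endocrine and goblet cells, had the smallest p of the comparison, at 1.90, 1.87 and 1.28 CPM in the OVCAR3-labelled pools (L, M and R) and 51.8, 39.4 and 42.3 CPM in the CCL218-labelled pools (log2 fold change 4.73 ± 0.24 (SE), edgeR adjusted p = 0.00182). ADH1C, a class I alcohol dehydrogenase, measured 0.410, 0.125 and 0.551 CPM in the OVCAR3-labelled pools (L, M and R) and 9.65, 6.74 and 8.78 CPM in the CCL218-labelled pools (log2 fold change 4.46 ± 0.45 (SE), edgeR adjusted p = 0.00604). None of these ranges met between labels. ZNF462, a zinc finger protein, was at 0.154, 0.125 and 0.147 CPM against 1.81, 4.34 and 4.32 CPM in the same order. CAP2, an actin-binding adenylyl cyclase-associated protein, stood at 0.359, 0.499 and 0.367 CPM against 4.86, 4.62 and 4.95 CPM, and its 3 CCL218-labelled pools lay within a narrow range. DAB2, an endocytic adaptor, was at 0.487, 0.436 and 0.184 CPM against 3.91, 4.86 and 3.34 CPM. BACE2, an aspartyl protease, was at 4.57, 3.68 and 5.10 CPM against 37.98, 54.6 and 56.3 CPM and was expressed under both labels. The other 5 genes of this group, IFI44L, JPH1, AUTS2, ROBO2 and LINC00261, had log2 fold changes of 3.01 to 3.13, and JPH1, a junctional membrane protein of the endoplasmic reticulum, was at 1.59, 3.18 and 2.97 CPM against 16.3, 24.7 and 24.7 CPM. By p, LYN, a SRC-family kinase (1.54, 1.68 and 1.58 CPM against 9.82, 11.5 and 13.8 CPM; log2 fold change 2.87 ± 0.21 (SE), edgeR adjusted p = 0.00293), and KCTD15, a BTB-domain protein (3.21, 2.99 and 2.92 CPM against 14.5, 14.2 and 14.9 CPM; log2 fold change 2.26 ± 0.17 (SE), edgeR adjusted p = 0.00293), also led. EPB41L2, REG4, CAP2, BACE2, LYN and KCTD15 kept their call in every alternative in which they were tested, the position block and each left-out pool included. ZNF462, ADH1C, DAB2, JPH1 and LINC00261 lost theirs without OVCAR3 R, ROBO2 without OVCAR3 L or R, IFI44L without OVCAR3 L and AUTS2 without CCL218 R.

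The 12 genes lowest in the CCL218-labelled pools were MAGEA3, OXCT1, SLPI, APOBEC3G, DMBT1, MAGEA12, C4BPA, ISYNA1, NEB, APOBEC3C, IKZF3 and TOX2. MAGEA3 (chrX:152698767-152702347, plus strand), a cancer-testis antigen, was at 3.54, 4.52 and 5.30 CPM in the OVCAR3-labelled pools (L, M and R) and 0.0489, 0 and 0 CPM in the CCL218-labelled pools. OXCT1 (chr5:41730065-41870425, minus strand), the mitochondrial enzyme that activates ketone bodies for oxidation, was at 1.85, 4.92 and 4.70 CPM in the OVCAR3-labelled pools (L, M and R) and 0.0489, 0 and 0 CPM in the CCL218-labelled pools. Each had 2 counts in all 3 CCL218-labelled pools together, all in pool L, so their ratios were 273 (95% exact interval 75.2 to 2258) and 232 (63.8 to 1920), intervals that cover counting error only and are too narrow where both reads of a fragment were counted. Their edgeR adjusted p values were 0.00373 and 0.00757. SLPI, a secreted inhibitor of leukocyte proteases, was at 21.5, 10.5 and 15.7 CPM in the OVCAR3-labelled pools (L, M and R) and 1.20, 0.518 and 0.466 CPM in the CCL218-labelled pools (log2 fold change -4.46 ± 0.46 (SE), edgeR adjusted p = 0.00658). The labels did not overlap, and L was the highest pool under both. APOBEC3G and APOBEC3C are antiviral cytidine deaminases of 1 gene cluster with similar sequences, and MAGEA3 and MAGEA12 are close paralogs, so the counting could have split reads among family members. APOBEC3C measured 33.5, 20.1 and 23.8 CPM against 3.18, 2.42 and 3.68 CPM and APOBEC3G 5.62, 2.56 and 3.87 CPM against 0.391, 0.173 and 0.0846 CPM. MAGEA12 was at 9.59, 8.17 and 11.2 CPM against 1.17, 1.04 and 0.698 CPM, low but present in all CCL218-labelled pools. ISYNA1, which makes inositol phosphate from glucose 6-phosphate, was at 17.7, 10.004 and 9.97 CPM against 2.20, 0.907 and 0.931 CPM. The mucosal scavenger receptor DMBT1, the complement regulator C4BPA, the giant muscle protein gene NEB and the nuclear factors IKZF3 and TOX2 had log2 fold changes of -3.53 to -2.91 and were all below 1 CPM under CCL218. ISYNA1 lost its call without OVCAR3 L or R or CCL218 M or R, and APOBEC3G without CCL218 M or R and with all 12 libraries in one fit. C4BPA lost its call without CCL218 M and SLPI without OVCAR3 R.

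By smallest p the lower genes were GJB6, HBEGF, FAM83A, SERPINA5 and DUSP5. GJB6, the gap junction protein connexin 30 of stratified epithelia, was at 13.5, 10.8 and 13.03 CPM in the OVCAR3-labelled pools (L, M and R) and 1.76, 1.94 and 2.07 CPM in the CCL218-labelled pools (log2 fold change -2.69 ± 0.20 (SE), edgeR adjusted p = 0.00293). HBEGF, a ligand of the EGF receptor, was at 54.4, 53.2 and 58.9 CPM in the OVCAR3-labelled pools (L, M and R) and 12.6, 11.5 and 13.01 CPM in the CCL218-labelled pools (log2 fold change -2.16 ± 0.16 (SE), edgeR adjusted p = 0.00293). FAM83A, an adaptor of EGF receptor signalling, measured 71.1, 91.4 and 87.1 CPM against 9.68, 13.4 and 14.3 CPM (log2 fold change -2.74 ± 0.22 (SE), edgeR adjusted p = 0.00369). SERPINA5, a serine protease inhibitor, stood at 17.0, 15.8 and 16.4 CPM against 3.08, 2.07 and 2.96 CPM. In all of these the pools of a label lay close together, and the gap between labels was wider than the range within either. These 5 genes kept their call in every alternative. Of the 44 named genes that were called, 20 kept their call in every alternative tested and 24 lost it in at least 1, of which 21 lost it only where pools were left out.

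**Figure D3:**
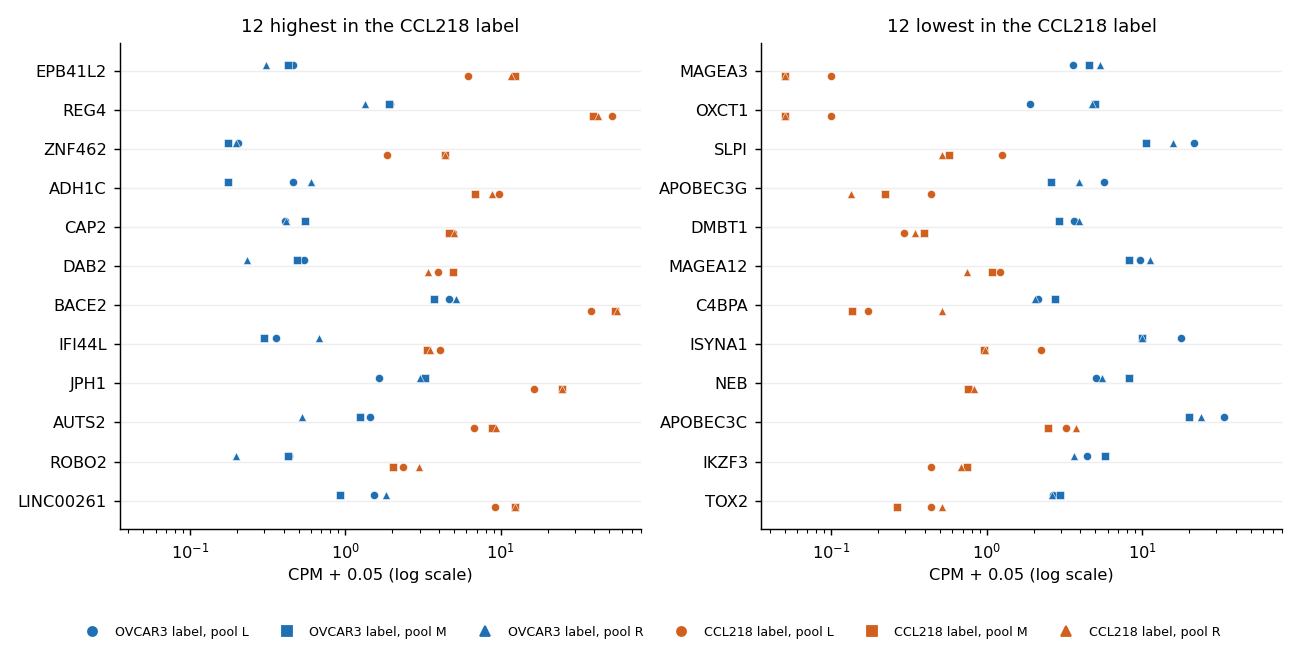
Levels of the 12 genes with the highest and the 12 with the lowest log2 fold change among called genes with a mean of at least 2 CPM, as CPM + 0.05 on a log axis; each point is 1 control pool, colour gives the label and shape the plate position. No gene has overlapping labels, and MAGEA3 and OXCT1 are at 0 in CCL218-labelled pools M and R.

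Interferon-stimulated genes were the group with the most calls toward the CCL218 label. Type I and III interferons act through a transcription factor complex that binds a GAAA-rich element in promoters and turns on antiviral genes. The element is shown to give its letters, in 30-base windows of the reference promoter (RefSeq, GRCh38.p14) for the 5 list members with the smallest p that hold 2 copies of GAAA separated by any 2 bases on either strand, with those letters in capitals, 5′ to 3′ along the gene.
IFI44L (chr1:78620365-78620394, plus strand): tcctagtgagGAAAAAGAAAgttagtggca
IFIT1 (chr10:89392503-89392532, plus strand): ttagTTTCACTTTCcccTTTCGGTTTCcct
IFIT3 (chr10:89327865-89327894, plus strand): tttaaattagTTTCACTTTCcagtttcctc
IFITM1 (chr11:313990-314019, plus strand): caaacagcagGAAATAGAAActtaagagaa
IFI6 (chr1:27672266-27672295, minus strand): gcagagtgcaGAAATAGAAActccgacagg
In the 250 bases before the start site, 14 of the 27 tested members with a promoter in the table held the letters, against 2.16% of the 9690 promoters of tested genes and 3.07% of all 27305. Of the 8 called members with a promoter, 2 held them, IFI44L and IFIT1, and the other 3 genes printed were not called. A match is a description of the sequence and not a measured binding site.

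Of 35 tested interferon-stimulated genes, 10 were higher in the CCL218-labelled pools and 0 lower, against 0.941% and 1.08% of all genes, and the median log2 fold change of the list was 0.94 against 0.01. Pools were apart with CCL218 higher for 23 members and with OVCAR3 higher for 2. IFI44L was at 0.308, 0.249 and 0.624 CPM in the OVCAR3-labelled pools (L, M and R) and 4.01, 3.30 and 3.47 CPM in the CCL218-labelled pools (log2 fold change 3.13 ± 0.38 (SE), edgeR adjusted p = 0.0106). MX1, a GTPase that blocks viral replication, was at 4.62, 2.43 and 2.92 CPM in the OVCAR3-labelled pools (L, M and R) and 18.9, 15.4 and 15.0 CPM in the CCL218-labelled pools (log2 fold change 2.30 ± 0.28 (SE), edgeR adjusted p = 0.0106). Its relative MX2 measured 1.13, 1.40 and 1.51 CPM against 7.45, 6.05 and 5.06 CPM (edgeR adjusted p = 0.00912). OAS2, which makes the 2-5A messenger that activates RNase L, was at 4.51, 2.74 and 2.39 CPM against 15.5, 16.7 and 11.7 CPM (edgeR adjusted p = 0.0153). The labels did not overlap in these genes, and no plate position was the highest in all of them. XAF1, RSAD2, CMPK2, HERC6, UBE2L6 and IFIT1 were also called higher, with log2 fold changes of 1.06 to 2.67. Most members were present at modest levels under both labels, and IFIT1 was at 14.1, 11.8 and 13.8 CPM against 30.2, 25.1 and 27.3 CPM. IFI6 (16.2, 8.85 and 13.7 CPM against 56.1, 26.8 and 27.9 CPM; edgeR adjusted p = 0.105) and IFITM1 (2.10, 0.717 and 1.30 CPM against 8.94, 4.36 and 4.32 CPM; edgeR adjusted p = 0.0883) were apart but not called. ISG15, a ubiquitin-like modifier, overlapped between labels at 175, 53.7 and 99.1 CPM against 184, 63.0 and 65.5 CPM, as did the pathway factors STAT2, IRF9 and IRF7. BST2, an antiviral tether, lay the other way, at 120.2, 91.4 and 139.6 CPM against 82.4, 67.5 and 77.4 CPM (edgeR adjusted p = 0.239). With the position block 28 of the 35 were higher and 3 lower, against 17.6% and 18.8% of all genes, and with the length and GC trend removed 17 were higher and 0 lower. IFIT1 lost its call with that trend removed. The 10 calls became 3 without OVCAR3 L, 3 without OVCAR3 M, 1 without OVCAR3 R, 2 without CCL218 M, 3 without CCL218 R and 4 without both L pools, an alternative chosen after seeing the data.

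Colorectal markers called in the main fit were genes of secretory cells and carcinoembryonic antigens. Of the 20 tested, 4 were higher in CCL218 and 0 lower, against 0.941% and 1.08% of all genes, with a list median of 0.13. Pools were apart with CCL218 higher for 8 and with OVCAR3 higher for 2, against 8.63% and 9.02% of all genes. With the length and GC trend removed, 7 were higher and 0 lower, against 1.66% and 2.40% of all genes. ATOH1 (chr4:93828753-93830964, plus strand), which commits intestinal cells to the secretory fate, stood at 8.93, 11.7 and 12.2 CPM in the OVCAR3-labelled pools (L, M and R) and 40.0, 43.9 and 42.6 CPM in the CCL218-labelled pools (log2 fold change 1.95 ± 0.18 (SE), edgeR adjusted p = 0.00483). MUC2 was at 9.46, 11.1 and 5.58 CPM in the OVCAR3-labelled pools (L, M and R) and 78.4, 47.8 and 28.1 CPM in the CCL218-labelled pools (log2 fold change 2.56 ± 0.43 (SE), edgeR adjusted p = 0.0314). Its CCL218-labelled pools ran over a wide range, with L highest and R lowest, and all 3 were above the OVCAR3-labelled pools. CEACAM5 (4.51, 6.11 and 4.52 CPM against 12.95, 15.6 and 13.8 CPM; log2 fold change 1.48 ± 0.20 (SE), edgeR adjusted p = 0.0144) and CEACAM6 (2.46, 4.30 and 2.57 CPM against 11.2, 17.1 and 15.1 CPM; log2 fold change 2.22 ± 0.29 (SE), edgeR adjusted p = 0.0144) are adjacent surface glycoprotein genes with similar sequences, so their separate values are uncertain. TFF3, a goblet cell trefoil peptide, was at 24.0, 8.73 and 16.8 CPM against 59.9, 27.0 and 26.8 CPM, apart but not called (edgeR adjusted p = 0.34). It passed with the length and GC trend removed (edgeR adjusted p = 0.0134). USH1C, a brush border scaffold, was apart in the other direction without being called, at 322, 253 and 305 CPM against 214, 163 and 171 CPM (edgeR adjusted p = 0.143). DPP4, a brush border peptidase (31.1, 56.1 and 33.6 CPM against 32.9, 44.4 and 35.7 CPM), and CDH17, an intestinal cadherin (2.72, 3.74 and 3.49 CPM against 2.42, 4.84 and 4.19 CPM), overlapped. With the block, 9 of the 20 were higher and 6 lower, against 17.6% and 18.8% of all genes. ATOH1 kept its call in every alternative. MUC2 lost it without any 1 OVCAR3-labelled pool or CCL218 M, and CEACAM5 and CEACAM6 without OVCAR3 L or R or CCL218 M or R.

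Among 10 tested mucins, 2 were higher and 1 lower in the CCL218-labelled pools, against 0.941% and 1.08% of all genes. MUC17, a membrane mucin of the intestine in a cluster of similar genes, was at 0.154, 0.125 and 0.257 CPM against 2.40, 2.01 and 0.931 CPM (edgeR adjusted p = 0.0223). MUC5B, a gel-forming mucin of airway and glands, was higher under OVCAR3, at 20.2, 21.9 and 17.2 CPM in the OVCAR3-labelled pools (L, M and R) and 5.99, 4.69 and 2.33 CPM in the CCL218-labelled pools (log2 fold change -2.19 ± 0.34 (SE), edgeR adjusted p = 0.024). The gel-forming genes MUC2 and MUC5B thus differed in opposite directions, and no mucin kept its call without any 1 of the OVCAR3-labelled pools. MUC5AC (74.6, 62.9 and 51.6 CPM against 85.8, 51.4 and 30.1 CPM) and MUC13 (72.4, 74.0 and 64.6 CPM against 67.7, 68.5 and 64.4 CPM) overlapped. Of 9 tested keratins, 0 were higher and 2 lower, against the same shares of all genes. KRT13, a keratin of stratified mucosa, was at 318, 189 and 271 CPM against 114, 72.2 and 84.3 CPM (log2 fold change -1.53 ± 0.26 (SE), edgeR adjusted p = 0.0329), and KRT17, a keratin of stressed and basal epithelium, at 117, 60.5 and 61.0 CPM against 22.4, 9.81 and 9.08 CPM (log2 fold change -2.53 ± 0.45 (SE), edgeR adjusted p = 0.0378). Both calls were lost without OVCAR3 L or R or CCL218 M or R. KRT8, KRT18 and KRT19, the keratins of simple epithelia, overlapped between labels. The 16 general epithelial genes gave 0 calls, and EPCAM (1001, 715 and 1022 CPM against 937, 662 and 748 CPM) and the adherens junction gene CDH1 (454, 554 and 406 CPM against 418, 604 and 532 CPM) overlapped.

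Immediate early genes, transcribed within minutes of growth factor or stress signalling, lay mostly toward the OVCAR3 label. Of 38 tested, 0 were higher in CCL218 and 6 lower (0.941% and 1.08% of all genes), the list median was -0.69 against 0.01 for all genes, and 32 of the 38 had a log2 fold change below 0. FOSB, an AP-1 subunit, was at 714, 876 and 757 CPM in the OVCAR3-labelled pools (L, M and R) and 338, 196 and 183 CPM in the CCL218-labelled pools (log2 fold change -1.71 ± 0.27 (SE), edgeR adjusted p = 0.0265). ATF3, a stress-induced bZIP factor, was at 216, 193 and 162 CPM in the OVCAR3-labelled pools (L, M and R) and 58.7, 29.3 and 25.2 CPM in the CCL218-labelled pools (log2 fold change -2.34 ± 0.34 (SE), edgeR adjusted p = 0.0209). NR4A1, an orphan nuclear receptor, measured 296, 245 and 216 CPM in the OVCAR3-labelled pools (L, M and R) and 82.6, 39.6 and 34.7 CPM in the CCL218-labelled pools (log2 fold change -2.27 ± 0.35 (SE), edgeR adjusted p = 0.024). In the CCL218-labelled plate L was the highest pool for these 3 genes, and every pool there was below every OVCAR3-labelled pool. DUSP5, a nuclear phosphatase of ERK, was at 35.1, 36.7 and 36.2 CPM against 8.75, 8.21 and 6.35 CPM (log2 fold change -2.21 ± 0.18 (SE), edgeR adjusted p = 0.00369) and kept its call in every alternative. The growth-restraining factor KLF6 (215, 278 and 255 CPM against 95.3, 130.4 and 120.4 CPM) and EGR3 (2.82, 4.30 and 3.10 CPM against 1.03, 0.950 and 0.762 CPM) completed the 6, and KLF6 lost its call with scaling by library totals. Other prominent members were not called. FOS was apart with OVCAR3 higher, at 1128, 1273 and 1333 CPM against 1026, 840.4 and 844 CPM (edgeR adjusted p = 0.365). EGR1 (735, 1738 and 1139 CPM against 773, 1395 and 1252 CPM) and MYC (162, 354 and 371 CPM against 148, 394 and 437 CPM) overlapped between labels (edgeR adjusted p = 0.921 and 0.891). For EGR1 and MYC the lowest pools were the L pools of both labels, at less than their M and R pools. With the block, 2 of the 38 were higher and 27 lower (17.6% and 18.8% of all genes). The 6 calls became 14 without CCL218 L and 1, DUSP5, without any 1 of the other 5 pools. Fewer cells in the responding state and less RNA per cell cannot be told apart in pooled libraries.

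Targets of ATF4, the transcription factor of the integrated stress response that raises amino acid supply, lay in the same direction. Of 24 tested, 0 were higher in CCL218 and 6 lower (0.941% and 1.08% of all genes), the median was -0.53, and all 24 had a log2 fold change below 0. TRIB3, a pseudokinase that restrains the response, was at 138, 141 and 136 CPM in the OVCAR3-labelled pools (L, M and R) and 59.8, 67.1 and 63.9 CPM in the CCL218-labelled pools (log2 fold change -1.12 ± 0.14 (SE), edgeR adjusted p = 0.0124). PSAT1 and PHGDH, enzymes of serine synthesis, were at 152, 169 and 129.6 CPM against 62.4, 65.2 and 67.7 CPM and 140.3, 118 and 117 CPM against 61.7, 53.2 and 62.3 CPM (edgeR adjusted p = 0.0144 and 0.0212). DDIT4, which restrains mTORC1, was at 159, 159 and 156 CPM against 65.0, 69.5 and 53.2 CPM (edgeR adjusted p = 0.0106). Levels within a label were close for these genes. SLC3A2, a chain of amino acid exchangers, was at 242, 199 and 216 CPM against 124, 110.5 and 119 CPM, a call lost with scaling by library totals. CHAC1, a glutathione-degrading enzyme, differed most, at 62.4, 36.5 and 29.1 CPM in the OVCAR3-labelled pools (L, M and R) and 12.4, 7.00 and 5.46 CPM in the CCL218-labelled pools (log2 fold change -2.36 ± 0.41 (SE), edgeR adjusted p = 0.0343). ATF4 itself overlapped, at 1143, 618 and 801 CPM against 792, 412 and 446 CPM (edgeR adjusted p = 0.494). Of the 6 called genes, CHAC1 alone held the ATF4 core TGATGNAA on either strand in the 250 bases before its start, as did 1.37% of the promoters of tested genes.
CHAC1 (chr15:40953251-40953280, plus strand; core in capitals, read on the other strand): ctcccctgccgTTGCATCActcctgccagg
With the block 18 of the 24 were lower and 0 higher (18.8% and 17.6% of all genes). The 6 calls became 0 without OVCAR3 L, OVCAR3 R or CCL218 R, 1 without CCL218 M, 3 without OVCAR3 M and 9 without CCL218 L. The 18 genes of the unfolded protein response had 0 calls in either direction and a median of -0.04. With the block 1 was higher and 2 lower, against 17.6% and 18.8% of all genes.

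**Figure D4:**
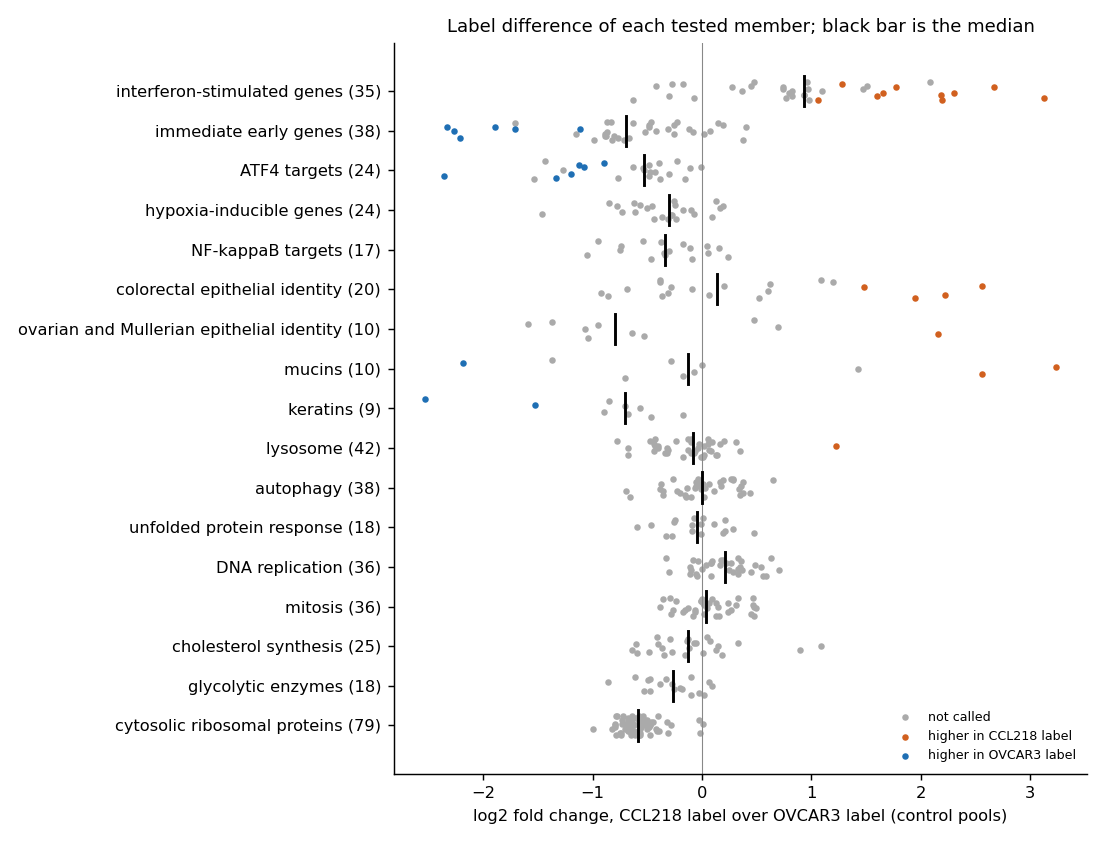
Log2 fold change (CCL218 label over OVCAR3 label) of every tested member of 17 gene lists in the control pools; each point is 1 gene, spread vertically only for legibility, orange and blue mark called genes and the black bar is the list median. The medians run from -0.80 for the ovarian list to 0.94 for interferon-stimulated genes, and the number tested stands beside each name.

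Lysosome and autophagy genes, the compartment and the pathway that HCQ acts on, gave few calls between the labels before any drug, as did all genes (2.02%). The summed level of the lysosome list did not overlap, at 5295 to 6085 CPM under OVCAR3 and 4562 to 4870 CPM under CCL218. Of 42 tested lysosome genes, 1 was higher and 0 lower, with a median of -0.08. The call was SGSH, which removes sulfate from heparan sulfate, at 3.28, 2.93 and 3.32 CPM in the OVCAR3-labelled pools (L, M and R) and 8.55, 7.65 and 6.18 CPM in the CCL218-labelled pools (log2 fold change 1.23 ± 0.21 (SE), edgeR adjusted p = 0.0309), and it was lost with all 12 libraries in one fit and in every fit that left out a pool other than CCL218 L. LAMP1 was at 344, 398 and 385 CPM against 329, 399 and 416 CPM and LAMP2 at 40.9, 65.6 and 57.9 CPM against 37.4, 68.9 and 68.3 CPM, both overlapping. The protease CTSD was apart but not called, at 979, 937 and 1161 CPM against 595, 568 and 635 CPM (edgeR adjusted p = 0.0883). Of 38 autophagy genes, 0 were called, 19 of them above and 19 below a log2 fold change of 0, and RB1CC1, a scaffold of the initiating kinase complex, was closest to the threshold at 55.9, 72.2 and 55.3 CPM against 81.2, 108 and 98.7 CPM (edgeR adjusted p = 0.195). With the block 2 lysosome genes were higher and 12 lower, and 8 autophagy genes were higher and 6 lower, against 17.6% and 18.8% of all genes.

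Several lists gave 0 calls without the block and many with it, where 17.6% of all genes were higher and 18.8% lower. Of 79 tested cytosolic ribosomal protein genes, 0 were called, 78 had a log2 fold change below 0 and the median was -0.58. With the block 74 of them were lower. Their summed level was 102912 to 189179 CPM under OVCAR3 and 75442 to 138123 CPM under CCL218, which overlapped, and the median was -0.34 with the length and GC trend removed. These genes have short transcripts and many pseudogenes that share reads. Of 24 hypoxia-inducible genes 14 were lower and 0 higher with the block (median -0.30), led by ANKRD37 at 6.36, 5.77 and 9.12 CPM against 3.37, 2.35 and 1.99 CPM. Of 18 glycolytic enzymes 8 were lower (median -0.26), of 17 NF-kappaB targets 7 (median -0.34), of 25 cholesterol synthesis genes 10 lower and 2 higher (median -0.12), and of 13 replication-dependent histone genes 7 lower (median -0.53). DNA replication genes lay the other way, with 12 of 36 higher and 2 lower with the block and a median of 0.21, led by GINS4 at 6.002, 6.33 and 5.58 CPM against 8.53, 10.3 and 10.3 CPM. The 36 mitosis genes had 7 higher and 3 lower with the block and a median of 0.03. Without the block none of these lists had a called member in the main fit. With the length and GC trend removed, 1 ribosomal protein gene, 1 NF-kappaB target and 2 hypoxia-inducible genes were lower. ANKRD37 was among them (edgeR adjusted p = 0.0296). Scaling by library totals in place of TMM moved the median of all genes to 0.16, and the medians of the cholesterol synthesis (0.03), lysosome (0.07), HOX (0.07), unfolded protein response (0.12) and WNT target (0.09) lists then lay above 0.

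Of 16 WNT targets, 2 were higher in CCL218, the ephrin receptor EPHB3 (19.2, 19.8 and 17.8 CPM against 34.8, 38.7 and 42.2 CPM; edgeR adjusted p = 0.0222) and the homeobox factor PROX1 (3.03, 4.05 and 2.66 CPM against 9.07, 9.35 and 7.36 CPM; edgeR adjusted p = 0.0286). Both calls were lost without OVCAR3 L or R or CCL218 M or R, and that of EPHB3 also without OVCAR3 M and with all 12 libraries in one fit. Of all genes 0.941% were called higher and 1.08% lower, the shares for each list of this paragraph. ASCL2, an intestinal stem cell factor, lay the other way without being called, at 46.1, 20.4 and 29.9 CPM against 11.5, 3.76 and 3.98 CPM (edgeR adjusted p = 0.0867). It passed with the length and GC trend removed (edgeR adjusted p = 0.00343). LGR5 was at 21.5, 25.6 and 29.8 CPM against 27.5, 41.0 and 43.3 CPM. Of 20 drug-metabolizing enzymes 1 was lower, CYP4F3, a leukotriene hydroxylase in a cluster of similar genes, at 3.41, 3.37 and 3.52 CPM against 0.929, 1.34 and 1.10 CPM (edgeR adjusted p = 0.0214), a call lost in every fit that left out a pool other than CCL218 L. The 2 tested metallothioneins were not called (median -2.25), and MT1E was at 10.5, 2.24 and 6.498 CPM against 1.69, 0.691 and 0.656 CPM. Among positional and allelic genes, 0 of 26 HOX genes, 0 of 6 genes around CCNE1, 0 of 3 genes with common null alleles and 0 of 4 HLA genes were called. HOXA13, a factor of the hindgut, was at 51.2, 66.9 and 59.4 CPM against 67.3, 82.9 and 80.1 CPM. Markers of other cell types were few, with 3 fibroblast and smooth muscle, 2 leukocyte and 1 endothelial gene past the filter and 0 called. No mitochondrially encoded gene was listed in the table.

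Genes called between the control pools were then read in the HCQ-evolved pools, which share no library with them. Evolved OVCAR3 R stood apart from the other evolved OVCAR3-labelled pools: the SD over genes of the log2 ratio was 0.746 to L and 0.801 to M, against 0.244 between L and M. It was also low in colorectal markers, with CDX2 at 8.35, 9.82 and 0.807 CPM, USH1C at 248, 273 and 51.8 CPM and LGALS4 at 496, 461 and 134 CPM in L, M and R. Results of the evolved pools are therefore also given without it, and its part in them was otherwise not tested. Of the 116 genes higher in CCL218, 110 were tested there, 108 had the same sign (98.2%) and 83 were called in the same direction. Of the 133 lower genes, 116 were tested, 100 had the same sign (86.2%), 70 were called in the same direction and 5 in the opposite one. Among all 12025 genes tested in both, 77.6% had the same sign, and of the 12207 genes tested in the evolved pools 6.39% were called higher and 7.23% lower (13.6% in all). REG4 was at 0.494, 0.468 and 0.101 CPM in the evolved OVCAR3-labelled pools and 33.2, 32.5 and 30.9 CPM in the evolved CCL218-labelled pools. ATOH1 was at 3.11, 2.30 and 0.841 CPM in the evolved OVCAR3-labelled pools and 27.2, 29.6 and 22.2 CPM in the evolved CCL218-labelled pools, further apart than in the controls in fold, although that difference was not called (edgeR adjusted p = 0.157). EPB41L2, CAP2, BACE2 and LYN were also called higher, and SLPI, GJB6, FAM83A and SERPINA5 lower. The 153 genes called in the same direction were 58 without evolved CCL218 L, 45 without M, 52 without R, 96 without evolved OVCAR3 M and 181 without evolved OVCAR3 R.

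The size of the label difference changed between control and evolved pools for 110 of 12613 genes (0.872%), in a test that uses the same control libraries. The change was upward for 87 (0.690%) and downward for 23 (0.182%). Control and evolved pools differed in HCQ history, passage (19 against 15) and plate, which cannot be told apart. Without evolved OVCAR3 R, 163 changed upward and 49 downward. Of the 38 immediate early genes, 18 changed upward and 0 downward (19 and 0 without evolved OVCAR3 R). ATF3 was at 7.81, 4.75 and 5.80 CPM in the evolved OVCAR3-labelled pools and 43.4, 26.0 and 26.5 CPM in the evolved CCL218-labelled pools, a change of the label difference of 4.72 ± 0.48 (SE), edgeR adjusted p = 0.00167. HBEGF, which is not in that list, was at 4.06, 3.74 and 3.48 CPM in the evolved OVCAR3-labelled pools and 9.76, 8.08 and 9.32 CPM in the evolved CCL218-labelled pools (3.43 ± 0.19 (SE), edgeR adjusted p = 1.09e-05). CDKN1A, the p21 inhibitor of cyclin-dependent kinases and also outside the list, was at 59.6, 65.7 and 68.7 CPM against 18.9, 19.1 and 20.5 CPM in the controls and 28.3, 21.7 and 26.3 CPM in the evolved OVCAR3-labelled pools and 52.4, 41.4 and 41.5 CPM in the evolved CCL218-labelled pools (2.56 ± 0.22 (SE), edgeR adjusted p = 0.000539). These 3 genes, with FOSB and EGR3, were the 5 called in opposite directions in the 2 comparisons, so they were higher under OVCAR3 in control pools and higher under CCL218 in evolved pools. Of the 38 immediate early genes, 20 were called higher in the evolved CCL218-labelled pools and 0 lower (33 and 3 without evolved OVCAR3 R). Of all genes in the full evolved fit 6.39% were higher and 7.23% lower. That share without evolved OVCAR3 R is not given here, so list counts without it, here and below, have no background to be read against. Of the 35 interferon-stimulated genes 2 were called higher in the evolved CCL218-labelled pools and 0 lower, with a median of 0.30 against 0.94 in the controls. Without evolved OVCAR3 R, 15 were higher and 9 lower, with a median of 0.20. IFI44L was at 9.25, 7.95 and 6.88 CPM in the evolved OVCAR3-labelled pools and 10.3, 5.48 and 9.69 CPM in the evolved CCL218-labelled pools, without the gap seen in the controls (-3.04 ± 0.45 (SE), edgeR adjusted p = 0.0104), and MX2 was the other list member with a changed label difference. Of 11 ovarian and Mullerian markers tested in the evolved pools, 2 were higher in CCL218 (MSLN and MECOM) and 3 lower (WFDC2, MUC16 and KLK6), with a median of -0.42. WFDC2 was at 37.1, 42.7 and 37.1 CPM in the evolved OVCAR3-labelled pools and 5.94, 4.59 and 4.55 CPM in the evolved CCL218-labelled pools (edgeR adjusted p = 0.00111). Of the colorectal markers 13 of 21 were higher and 0 lower in the evolved pools, with a median of 1.98, and the label difference grew for 5 of 22. Without evolved OVCAR3 R, 17 were higher and 3 lower with a median of 1.51, and the difference grew for 10. CEACAM6 was at 1.55, 1.52 and 2.47 CPM in the evolved OVCAR3-labelled pools and 92.4, 122 and 90.6 CPM in the evolved CCL218-labelled pools (3.56 ± 0.39 (SE), edgeR adjusted p = 0.00244), and CDH17, which overlapped in the controls, was at 4.31, 4.56 and 1.72 CPM in the evolved OVCAR3-labelled pools and 45.0, 57.3 and 56.1 CPM in the evolved CCL218-labelled pools (3.71 ± 0.50 (SE), edgeR adjusted p = 0.00555).

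**Figure D5:**
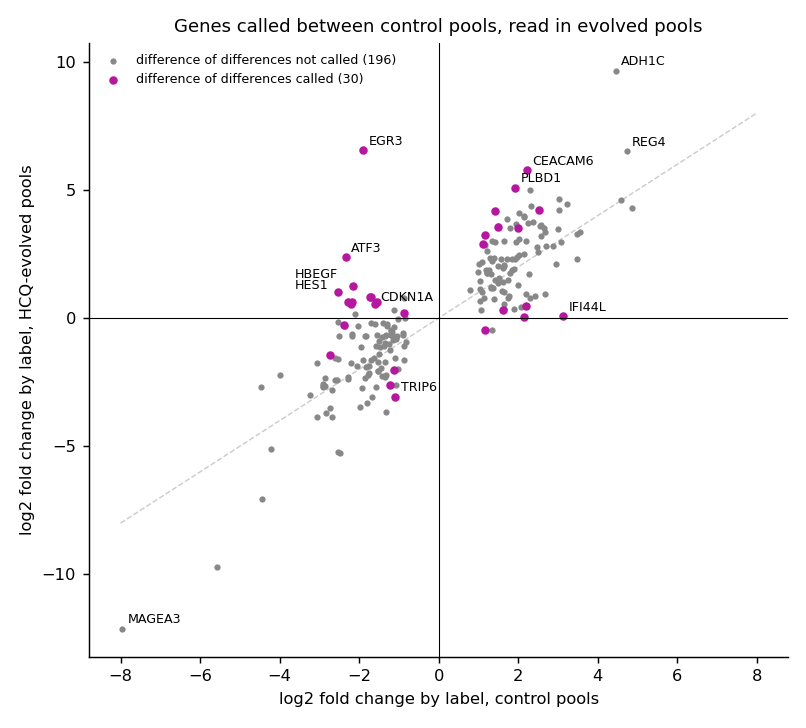
Log2 fold change by label in the HCQ-evolved pools against that in the control pools for the 226 genes called between control pools and tested in both; each point is 1 gene, the dashed line marks equal values, and the 30 genes whose label difference changed are in magenta. Most points lie at lower left or upper right, and ATF3, EGR3, HBEGF and CDKN1A lie at upper left. Fitted values of genes at or near 0 in a group, such as MAGEA3 and EGR3, depend on the prior count.

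Read along the chromosomes, the label difference was small. Over the 22 autosomes and chromosome X, each with at least 100 tested genes, the median log2 fold change ran from -0.12 (chromosome 15, 405 genes) to 0.14 (chromosome 4, 435 genes), with an SD of 0.0736 between chromosomes. Between 2 pools of the same label the SD of such medians was 0.0163 (CCL218 M and R) to 0.159 (CCL218 L and M). The label value used all control pools of each label, and each within-label value used single pools. These SDs are therefore not on the same scale, and whether the label difference exceeded the spread within a plate was not tested. In the evolved pools the SD of the medians by label was 0.150, and the lowest was -0.48 on chromosome 13.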

How the data were processed

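Poly(A) RNA of 12 pools was sequenced in paired ends, and the authors aligned the reads to hg38 with STAR, removed duplicates and counted reads per gene with featureCounts. The counts of 28278 genes were used as deposited. Of the control values of 1 to 4 counts, 77.8% to 81.6% were even in each library, so most fragments appear to have added 2 counts, and counting intervals are too narrow. Groups and the pool letters L, M and R came from the GEO labels, and the letters are read here as plate positions. No read-level step was repeated.

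Genes that reached 1 CPM in 3 or more of the 6 control libraries were tested with edgeR 4.0.16 (R 4.3.3), by TMM scaling, robust dispersions and the quasi-likelihood F test with Benjamini-Hochberg adjustment at 0.05. Printed levels are CPM scaled by TMM. Fold changes are CCL218 over OVCAR3 on the log2 scale. The evolved pools were fitted alone, and the change of the label difference was an interaction term over all 12 libraries. The scripts were tested on simulated data. DESeq2 1.42.0, limma 3.58.1, other filters and scalings, each left-out pool, removal of the length and GC trend, and a block for plate position were alternatives. The strand setting of the counting is not given in the sources used here, so overlapping and antisense genes are uncertain.

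Position paired the control pools by the rule applied here, since deviations from the label means correlated across genes at 0.865 (L), 0.831 (M) and 0.254 (R). OVCAR3 M correlated with CCL218 R at 0.516, above the value of the R pair. In the evolved pools the correlations were 0.528, -0.12 and 0.534. Nothing in the labels says that positions were handled together.

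Named genes were the 12 highest and 12 lowest fold changes among called genes with pools apart and a mean of 2 CPM or more in the higher label, the 5 smallest p in each direction, for every gene list the called member of lowest p per direction, and the detected colorectal and ovarian markers with CCNE1 and WT1. A few items are not reported here. Other list members were named after their values were seen. The comparison, the rule and the 30 gene lists were chosen with earlier results of these data known. Coordinates are those of hg38 (GENCODE 44), and 26186 of 28278 symbols (92.6%) were matched to it. Promoters are those of RefSeq (GRCh38.p14).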

Additional observations from a re-analysis of the deposited data

Results flagged for a closer look

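A test of the difference between the label difference in evolved pools and that in control pools called 110 of 12613 genes, 87 with a larger CCL218-over-OVCAR3 value in the evolved pools and 23 with a smaller one. HCQ history, passage and plate cannot be told apart in that test. The 87 became 53 without control OVCAR3 M, 57 without control OVCAR3 R, 48 without control CCL218 M, 42 without control CCL218 R, 37 without evolved CCL218 L, 35 without evolved CCL218 M, 54 without evolved CCL218 R and 163 without evolved OVCAR3 R.

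Among the named genes, the difference was positive for HBEGF (3.43 on the log2 scale), DUSP5 (2.76) and FAM83A (1.32). HBEGF crossed from higher under OVCAR3 to higher under CCL218, and FAM83A remained higher under OVCAR3. DUSP5 was at 35.1, 36.7 and 36.2 CPM against 8.75, 8.21 and 6.35 CPM in the controls and 5.93, 6.86 and 3.92 CPM in the evolved OVCAR3-labelled pools and 9.25, 7.12 and 7.88 CPM in the evolved CCL218-labelled pools. It was also positive for the colorectal markers CDH17 (3.71), CEACAM6 (3.56), CEACAM7 (2.91) and CEACAM5 (2.07), for MUC5B (2.81) and for CYP4F3 (2.17). CEACAM7, a carcinoembryonic antigen family member of colon, overlapped in the controls at 0.923, 2.43 and 1.05 CPM against 1.03, 0.950 and 1.35 CPM and was at 1.45, 0.974 and 2.59 CPM in the evolved OVCAR3-labelled pools and 8.67, 8.55 and 11.8 CPM in the evolved CCL218-labelled pools. MUC5B, higher under OVCAR3 in the controls, was at 6.16, 6.55 and 4.24 CPM in the evolved OVCAR3-labelled pools and 8.39, 10.4 and 7.15 CPM in the evolved CCL218-labelled pools. The difference was negative for the interferon-stimulated genes IFI44L (-3.04) and MX2 (-1.73), and MX2 was at 8.23, 7.17 and 5.62 CPM in the evolved OVCAR3-labelled pools and 12.4, 7.46 and 9.18 CPM in the evolved CCL218-labelled pools.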

How the results depend on the processing

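The counts of 116 higher and 133 lower genes moved to 175 and 219 with no filter beyond 1 count, 313 and 421 in DESeq2, 204 and 296 with the length and GC trend removed, 2163 and 2314 with the plate position block (paired fit), 1784 and 2217 with block and trend removal together, and 46 and 83 without both L pools, which was added after seeing the data. With all 12 libraries in one fit the lower count was 261. Leaving out 1 pool gave 15 to 161 higher and 10 to 310 lower genes. Scaling by DESeq2's size factors or library totals, filterByExpr, limma voom, non-robust dispersions and halved counts stayed within 1.5 times. The cause of these moves was not tested. The count in the evolved pools of genes called in the same direction, 153, was 45 to 181 without 1 pool. The counts of changed label differences, 87 and 23, were 306 and 157 in DESeq2, 262 and 155 with the trend removed, and 35 to 163 and 3 to 49 without 1 pool.

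Of 1246 recomputed values of 69 named genes, 1103 kept direction and call, 73 lost the call, 58 gained one and 12 changed sign. The sign changes were in genes not called: DPP4 with library totals (0.040) and without 1 pool (-0.25 to 0.22, above 0 without OVCAR3 M), CCNE1 in limma voom (-0.011), with the block (-0.011), with halved counts (-0.0014) and without 1 pool (-0.11 to 0.13, below 0 without OVCAR3 L, CCL218 M or CCL218 R), PHGR1 with the trend removed and with block and trend removal (0.17 in each) and without 1 pool (-0.95 to 0.20, above 0 without OVCAR3 L), and CEACAM7 without 1 pool (-0.63 to 0.17, above 0 without OVCAR3 M). Of the 25 named genes not called, 20 were called with the block. Halved counts, which stand for 1 count per fragment, gave 116 and 137 genes. At this depth 3 counts were worth 0.0521 to 0.0963 CPM in a control library, and differences among genes near that level were not detectable.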
